A study of Homo sapiens with 10 samples.

Results

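The 10 genes described here are transcriptional targets of YAP and TAZ, coactivators that act through TEAD transcription factors: ANKRD1, CCN1 (formerly CYR61), CCN2 (formerly CTGF), AMOTL2, AXL, NT5E, LATS2, CRIM1, AJUBA and TEAD1. They were taken as a listed set, with current and older symbols, out of 22432 named genes on the arrays. The list was chosen with earlier results of these data known. All 10 were measured, by 11 probe sets, because CCN2 has a second one. Their log2 signals were read in 786-O, a long-established human cell line from a clear-cell kidney tumour, which has no working VHL protein. Every group, the controls included, had been infected with lentivirus carrying a short hairpin RNA and selected with puromycin. One table of 6 arrays held ZHX2 hairpin 44, ZHX2 hairpin 45 and the scrambled hairpin, and another of 4 arrays held a p65 hairpin and its control hairpin, with 2 arrays in each group. ZHX2 is a zinc-finger and homeobox transcription factor, and p65, the product of RELA, is a subunit of NF-kB. The labels give a single p65 hairpin and leave unsaid if the replicates came from separate cultures, and the p-values therefore reflect only the spread between these arrays, which may be technical.

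In the Hippo pathway, the kinases LATS1 and LATS2 phosphorylate YAP and TAZ and so keep them out of the nucleus. When that phosphorylation is low, YAP and TAZ enter the nucleus and bind TEAD proteins on DNA. There they raise the transcription of matrix proteins, cytoskeletal proteins, receptors and several proteins that restrain YAP and TAZ themselves. Cell shape, matrix stiffness, cell density and signals through G-protein-coupled receptors are known inputs. In epithelial cells CCN1, CCN2 and ANKRD1 are widely used transcript readouts of YAP activity.

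With ZHX2 knocked down, 8 of the 10 YAP/TEAD target genes rose with each hairpin, against 4.81% of all genes called higher with hairpin 44 and 13% with hairpin 45, and the other two, LATS2 and TEAD1, did not pass the test. ANKRD1 rose most, by 3.51-fold over both hairpins, followed by CCN2 at 2.2-fold, NT5E at 2.19-fold and CCN1 at 2.05-fold. AXL, CRIM1, AMOTL2 and AJUBA rose by 1.41-fold to 1.48-fold. After p65 knockdown 0 of the 10 passed the test (0% of all genes did), with 5 of them above and 5 below their control. A gene was called at a limma adjusted p under 0.05 over all 22432 genes.

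Both targeted transcripts were lower on the arrays of their own hairpin. ZHX2 averaged 9.37 ± 0.0243 under hairpin 44 and 8.98 ± 0.0671 under hairpin 45, against 10.51 ± 0.103 on the scrambled arrays (SD, n = 2 arrays each). RELA averaged 5.16 ± 0.167 with the p65 hairpin and 7.66 ± 0.0232 with its control, a log2 change of -2.50 that missed the threshold (limma adjusted p = 0.0733) and passed with an intensity trend (adjusted p = 0.00132). The median log2 signal of an array was 6.15 to 6.22 for ZHX2 and 1.87 to 1.89 for p65, and no level was compared between the tables. As a check of the cell type, PAX8, a renal lineage factor, stood at 12.13 to 12.18 under hairpin 44, 11.74 to 11.75 under hairpin 45 and 12.32 to 12.35 on the scrambled arrays. Of 5 measured renal carcinoma markers, 3 fell over both ZHX2 hairpins and KRT18 rose by 0.62. The falls on the log2 scale were 0.38 for PAX8, 0.36 for PAX2 and 1.92 for CDH6. Over all genes 11.9% were called higher and 6.41% lower. Of 3 fibroblast markers LUM fell by 0.95, of 3 leukocyte markers CD68 fell by 0.46, and 0 of 4 endothelial and 0 of 3 epithelial adhesion markers passed limma. At an unadjusted p under 0.05 these last lists held 0 endothelial genes and 1 epithelial gene, against 32.2% of all genes. The mean signal of the 3 fibroblast markers was 5.46 to 5.53 under hairpin 44 and 5.43 to 5.45 under hairpin 45, against 5.94 to 5.96 on the scrambled arrays. The part of these markers in the results below was not tested. All arrays held the 786-O line, so these marker names do not stand for other cell types in the samples. In bulk RNA, a change in some cells and a change in all cells cannot be told apart.

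ANKRD1 encodes a nuclear and sarcomeric ankyrin repeat protein and is a direct TEAD target. Its log2 signal was 8.20 and 8.20 under hairpin 44 and 8.04 and 8.18 under hairpin 45, against 6.27 and 6.42 on the scrambled arrays. All 4 knockdown arrays stood far above both scrambled arrays. The hairpins lay close together, with both hairpin 45 arrays below both hairpin 44 arrays. The log2 change was 1.86 under hairpin 44 (SE 0.0906, limma adjusted p = 0.00404) and 1.77 under hairpin 45 (SE 0.0906, limma adjusted p = 0.000787). Among all 22432 genes the change over both hairpins, 1.81, ranked 5 from the highest.

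The promoter of ANKRD1 is shown because it is the member with the largest change and its upstream region holds 2 copies of the core letters bound by TEAD proteins. The sequence comes from RefSeq on GRCh38.p14, covers the 250 bases before the annotated start at chr10:90921088-90921337 on the minus strand, and has every GGAATG or its reverse complement CATTCC in capitals.
ANKRD1 promoter: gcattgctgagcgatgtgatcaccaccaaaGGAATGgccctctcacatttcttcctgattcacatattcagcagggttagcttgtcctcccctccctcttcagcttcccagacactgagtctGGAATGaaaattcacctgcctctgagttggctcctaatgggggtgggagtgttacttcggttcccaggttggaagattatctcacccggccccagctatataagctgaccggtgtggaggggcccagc
The 2 matches begin at positions -220 and -128 relative to the start.

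CCN1 and CCN2 encode secreted matricellular proteins of the CCN family that bind integrins and heparan sulfate. CCN1 gave 10.39 and 10.34 under hairpin 44 and 10.65 and 10.63 under hairpin 45, against 9.44 and 9.49 on the scrambled arrays. The 3 groups formed 3 separate steps, hairpin 45 highest and scrambled lowest. Over all 22432 genes, both hairpin 45 arrays lay above both hairpin 44 arrays in 6030 and below both in 5273. Its log2 change was 0.90 under hairpin 44 (SE 0.0723, limma adjusted p = 0.00583) and 1.18 under hairpin 45 (SE 0.0723, limma adjusted p = 0.00126).

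CCN2, by its main probe set 17023646, gave 8.49 and 8.48 under hairpin 44 and 8.95 and 8.94 under hairpin 45, against 7.59 and 7.57 on the scrambled arrays. Its groups also formed 3 steps in the same order, with replicates almost on top of each other. The log2 change was 0.90 under hairpin 44 (SE 0.0695, limma adjusted p = 0.00528) and 1.37 under hairpin 45 (SE 0.0695, limma adjusted p = 0.000787). The other CCN2 probe set, 17118180, which only the annotation of the ZHX2 platform assigns to the gene, gave 4.87 and 4.48 under hairpin 44, 4.69 and 4.53 under hairpin 45, and 4.39 and 4.63 on the scrambled arrays. Those groups overlapped, and its change averaged over both hairpins came to 0.13 (SE 0.144, limma adjusted p = 0.653 with every probe set tested). All its values lay under the array medians of 6.15 to 6.22, and a probe set that dim may not show a change. The 2 probe sets of CCN2 thus differed, and with their mean the gene still passed, at a log2 change of 0.63 (limma adjusted p = 0.00723).

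The CCN2 promoter is shown because it holds the most copies of the TEAD letters among the members with a sequence, at chr6:131951373-131951622 on the minus strand (RefSeq, GRCh38.p14, capitals as above).
CCN2 promoter: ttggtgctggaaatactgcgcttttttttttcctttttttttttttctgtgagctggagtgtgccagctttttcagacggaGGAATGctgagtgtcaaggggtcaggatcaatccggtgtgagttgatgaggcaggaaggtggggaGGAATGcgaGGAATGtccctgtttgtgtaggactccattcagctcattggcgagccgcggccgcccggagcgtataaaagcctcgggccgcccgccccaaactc
Its 3 matches begin at positions -169, -104 and -95. The RefSeq promoter table used here gives no entry for CCN1.

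**Figure D1:**
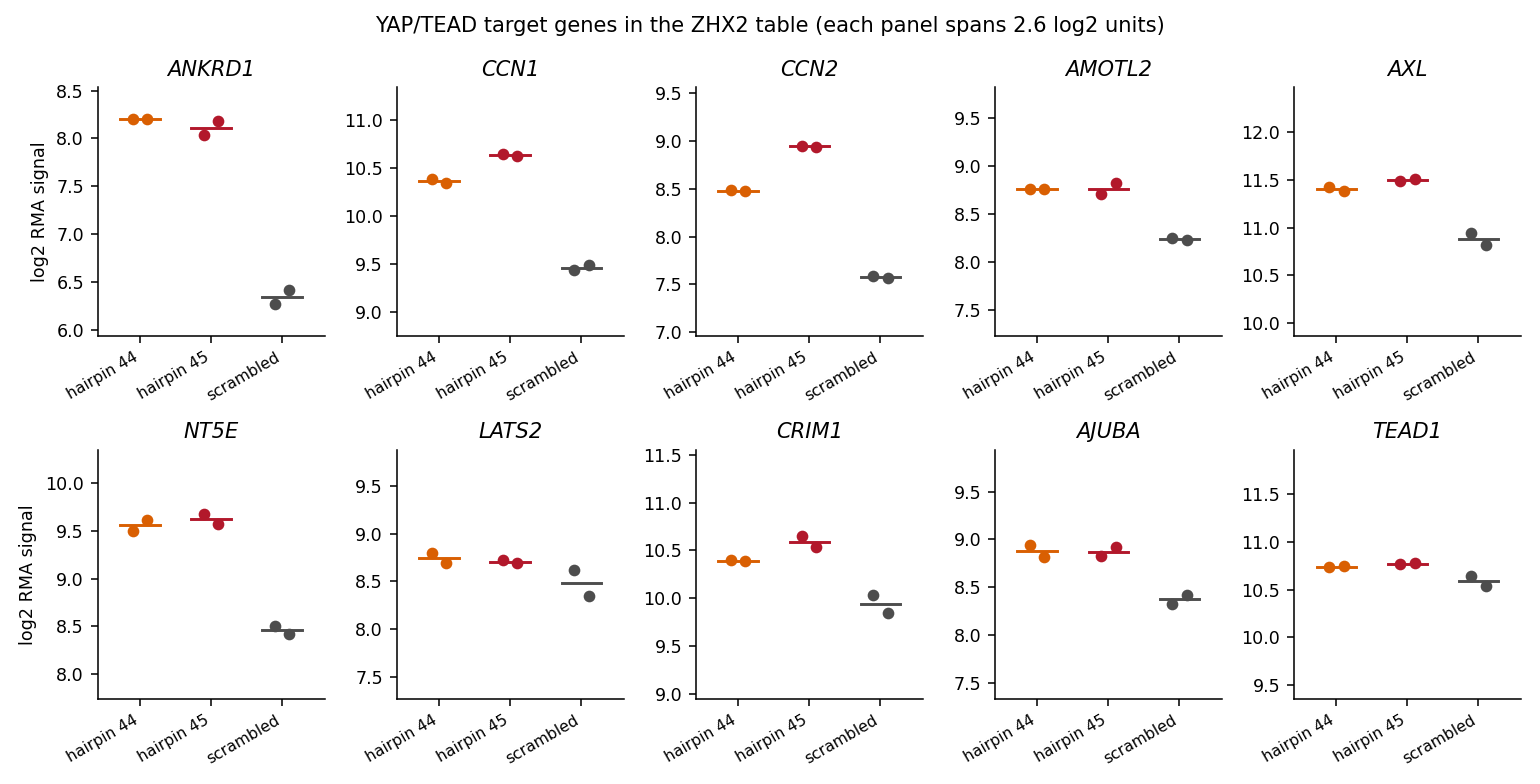
Log2 RMA signal of the 10 YAP/TEAD target genes on each of the 6 arrays of the ZHX2 table, with a panel per gene, points for arrays and bars for means of 2 arrays. ANKRD1, CCN1, CCN2 and NT5E show the widest gaps between knockdown and scrambled arrays, and LATS2 and TEAD1 the narrowest.

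Of the 2 cell-surface proteins, NT5E is the ecto-5'-nucleotidase CD73, which makes adenosine outside the cell, and AXL is the receptor tyrosine kinase for GAS6. NT5E gave 9.50 and 9.61 under hairpin 44 and 9.67 and 9.57 under hairpin 45, against 8.50 and 8.42 on the scrambled arrays. Its hairpin groups overlapped each other and stood about 1 log2 unit above scrambled, with changes of 1.10 for hairpin 44 (SE 0.0845, limma adjusted p = 0.00528) and 1.16 for hairpin 45 (SE 0.0845, limma adjusted p = 0.00177). AXL gave 11.42 and 11.38 under hairpin 44 and 11.49 and 11.51 under hairpin 45, against 10.94 and 10.82 on the scrambled arrays. Its changes of 0.52 (SE 0.0789, limma adjusted p = 0.0216) and 0.62 (SE 0.0789, limma adjusted p = 0.00596) were smaller, and all knockdown arrays still lay above both scrambled arrays.

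The NT5E promoter is shown as the contrast, since this strong riser has none of the TEAD letters in its window, at chr6:85449833-85450082 on the plus strand (RefSeq, GRCh38.p14).
NT5E promoter: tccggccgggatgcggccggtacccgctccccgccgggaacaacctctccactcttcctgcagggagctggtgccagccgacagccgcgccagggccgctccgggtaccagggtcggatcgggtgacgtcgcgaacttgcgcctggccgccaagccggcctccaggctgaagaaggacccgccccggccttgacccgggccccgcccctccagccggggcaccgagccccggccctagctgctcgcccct
AXL has 2 annotated starts in the table. The window of the second holds 1 match, shown with its flanks from chr19:41226531-41226560 on the plus strand.
AXL site: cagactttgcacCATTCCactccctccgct

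CRIM1 encodes a membrane-anchored protein with cysteine-rich repeats that binds bone morphogenetic proteins. It gave 10.40 and 10.39 under hairpin 44 and 10.65 and 10.54 under hairpin 45, against 10.03 and 9.85 on the scrambled arrays, with the 3 groups again in steps. Its change was 0.45 under hairpin 44 (SE 0.092, limma adjusted p = 0.0431) and 0.65 under hairpin 45 (SE 0.092, limma adjusted p = 0.00778). The hairpin 44 call of CRIM1 ended after quantile normalization (adjusted p = 0.0609) and with any single array left out.

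Among the members that restrain YAP, AMOTL2 encodes an angiomotin-like scaffold that holds YAP at junctions, and LATS2 a kinase that phosphorylates it. AJUBA, a LIM protein, instead binds and inhibits LATS kinases. AMOTL2 gave 8.76 and 8.76 under hairpin 44 and 8.71 and 8.82 under hairpin 45, against 8.25 and 8.23 on the scrambled arrays. AJUBA gave 8.94 and 8.82 under hairpin 44 and 8.83 and 8.92 under hairpin 45, against 8.33 and 8.42 on the scrambled arrays. For both genes the hairpin groups overlapped each other and stood clear of scrambled. AMOTL2 rose by 0.52 under hairpin 44 (SE 0.076, limma adjusted p = 0.0191) and by 0.53 under hairpin 45 (SE 0.076, limma adjusted p = 0.00813). AJUBA rose by 0.50 with each hairpin (SE 0.086, limma adjusted p = 0.0291 for hairpin 44 and 0.0134 for hairpin 45). The hairpin 44 call of AJUBA ended with any single array left out (adjusted p from 0.0681 to 0.161) and with every probe set tested (0.0911).

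LATS2 gave 8.80 and 8.69 under hairpin 44 and 8.72 and 8.69 under hairpin 45, against 8.62 and 8.35 on the scrambled arrays. All its knockdown arrays were above both scrambled arrays, but the scrambled arrays lay 0.26 apart, the widest gap of any of the 10 genes in a group of the ZHX2 table when each gene is read by its main probe set. The change averaged over both hairpins came to 0.24 (SE 0.0943, limma adjusted p = 0.143), and it ran from 0.11 without scrambled replicate 2 to 0.37 without scrambled replicate 1. TEAD1, the member that encodes a DNA-binding partner of YAP, gave 10.74 and 10.75 under hairpin 44 and 10.77 and 10.78 under hairpin 45, against 10.64 and 10.54 on the scrambled arrays. Its change averaged over both hairpins came to 0.17 (SE 0.0645, limma adjusted p = 0.135). When the moderation of the variance followed signal intensity, LATS2 and TEAD1 passed as well (adjusted p = 0.0409 and 0.0101), so that 10 of 10 were called higher, against 17.3% of all genes.

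AMOTL2 and AJUBA each have 2 annotated starts, and in each case the window of the second held 1 match to the TEAD letters. The upstream windows that hold them are shown, at chr3:134374448-134374697 for AMOTL2 and at chr14:22976843-22977092 for AJUBA, both on the minus strand (RefSeq, GRCh38.p14). For LATS2, whose match lies 10 bases after the start, the site is shown with its flanks, from chr13:21061560-21061589 on the minus strand.
AMOTL2 promoter: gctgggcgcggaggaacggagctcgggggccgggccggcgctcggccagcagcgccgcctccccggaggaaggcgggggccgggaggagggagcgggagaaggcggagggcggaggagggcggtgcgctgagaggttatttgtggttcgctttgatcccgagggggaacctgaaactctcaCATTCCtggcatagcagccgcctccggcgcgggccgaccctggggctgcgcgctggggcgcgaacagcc
AJUBA promoter: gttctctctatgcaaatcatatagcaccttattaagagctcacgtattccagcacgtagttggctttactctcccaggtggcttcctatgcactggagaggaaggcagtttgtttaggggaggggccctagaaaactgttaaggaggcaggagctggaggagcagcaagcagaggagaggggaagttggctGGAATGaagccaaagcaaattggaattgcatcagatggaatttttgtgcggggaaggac
LATS2 site: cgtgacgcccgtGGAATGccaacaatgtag

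Promoter windows of 300 bases, from 250 before to 50 after the start, were available for 7 of the 10 genes, in 10 windows. CCN1, CRIM1 and TEAD1 had none in the table. The letters GGAATG, read on both strands, occurred in 6 of the 10 windows, whereas 14% of all 35116 windows in the table held them. By gene they occurred in 6 of the 7, but AMOTL2, AXL and AJUBA each have 2 windows. No share per gene was computed over all genes. The genes were listed as TEAD targets, so a high share of these letters is not independent of that choice. Of all windows 1.37% held at least 2 matches, as ANKRD1 does, and 0.128% at least 3, as CCN2 does. The AP-1 letters TGANTCA, also read on both strands, occurred in the ANKRD1 window, where they overlapped no TEAD match, and in 7.71% of all windows. The kappaB motif bound by NF-kB occurred in the CCN2 window, over the TEAD letters nearest the start, and in the first AMOTL2 window, against 5.91% of all windows. The 2 windows of AMOTL2, of AXL and of AJUBA do not overlap, but windows of one gene are not separate genes. A match is a description of letters and not of a bound site, just as no match says only that these letters are not in this window. CCN2, with 3 matches, ANKRD1, with 2, and NT5E, with 0, were among the 4 genes that rose at least 2-fold. AMOTL2, AXL and AJUBA, with 1 each, rose by less, and LATS2, with 1, was not called. A relation between matches and change was not tested.

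**Figure D2:**
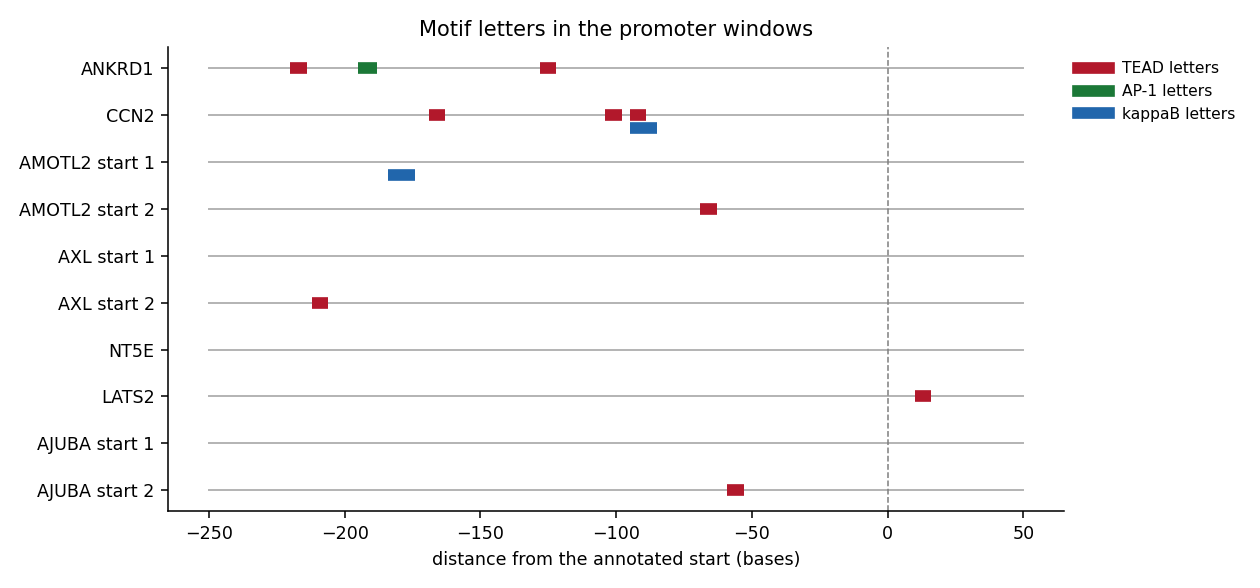
Positions of the TEAD, AP-1 and kappaB letters in the 10 promoter windows of 7 YAP/TEAD target genes, in bases from the annotated start, which the dashed line marks. Matches to the TEAD letters lie in 6 windows, with 3 in CCN2 and 2 in ANKRD1, and NT5E has 0.

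Of the list as a whole, 8 of 10 genes were called higher and 0 lower with both hairpins averaged, against 11.9% of all genes called higher and 6.41% lower. Under hairpin 44 alone 8 of 10 were higher, against 4.81% of all genes, and under hairpin 45 alone 8 of 10, against 13%. The same 8 genes passed with each hairpin, and 4.48% of all genes did so in that direction. Both hairpins were compared with the same scrambled arrays. Since the list was chosen with earlier results of these data known, its shares beside those of all genes are no independent test. On the single arrays all 10 genes had every knockdown array above both scrambled arrays, against 21.9% of all genes. The median log2 change of the 10 was 0.56, against 0.00 for all genes (lower and upper quartile -0.14 and 0.16). After quantile normalization the calls over all genes split more evenly, with 2110 higher and 1859 lower, against 2664 and 1438 as deposited, and 8 of the 10 genes were still called higher. The 8 calls of the averaged comparison were each kept when any 1 of the 6 arrays was left out.

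The count for hairpin 44 rested on few arrays. It was 8 with all arrays, 5 without scrambled replicate 1, 3 without scrambled replicate 2, 5 without hairpin 45 replicate 1 or 2, and 0 without hairpin 44 replicate 1 or 2. With a single hairpin 44 array left, the whole table gave 1 gene higher and 2 lower, or 2 and 2, and the log2 changes of the 10 genes kept their direction. The count was also 4 with every probe set tested, where AMOTL2, AXL, CRIM1 and AJUBA lost their call, and 5 in a fit of hairpin 44 and scrambled alone. For hairpin 45 it was 5 without hairpin 45 replicate 2 and 6 without hairpin 45 replicate 1.

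ZHX2 itself was lower with hairpin 45 than with hairpin 44, at -0.39, a difference that did not pass (SE 0.0862, limma adjusted p = 0.152). Hairpin 45 gave a higher signal than hairpin 44 in 7 of the 10 genes, against 11363 of all 22432 genes. By the limma test of that difference 0 of the 10 passed. At an unadjusted p under 0.05 there were 2, CCN1 and CCN2, against 15.1% of all genes. The difference of hairpin 45 minus hairpin 44 was 0.46 for CCN2 (SE 0.0695, limma adjusted p = 0.0832) and 0.27 for CCN1 (SE 0.0723, limma adjusted p = 0.192). CCN2 passed with an intensity trend (adjusted p = 0.00285, 4.11% of all genes higher) and without dim probe sets (adjusted p = 0.0235, 1.21% of genes higher), and CCN1 with an intensity trend (adjusted p = 0.00836). ANKRD1 went slightly the other way, at -0.09 (SE 0.0906, limma adjusted p = 0.691), and AMOTL2 and AJUBA had the same mean to within 0.01 log2 units. In the ZHX2 table as a whole 0.397% of genes passed this comparison in either direction.

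**Figure D3:**
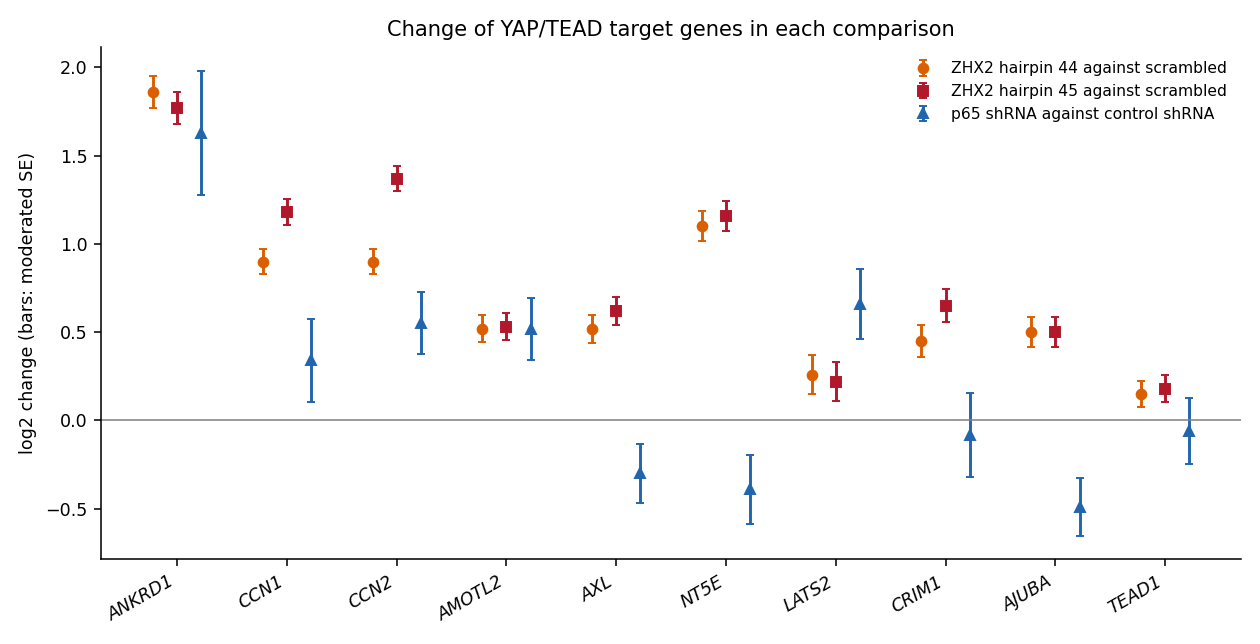
Log2 change of the 10 YAP/TEAD target genes with ZHX2 hairpin 44, ZHX2 hairpin 45 and p65 shRNA, each against its own control, with moderated standard errors as bars. All ZHX2 changes are above 0, while in the p65 comparison ANKRD1 reaches 1.63 and AXL, NT5E, CRIM1, AJUBA and TEAD1 lie below 0.

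With p65 lowered, the same genes showed no shared direction. By limma 0 of the 10 genes passed, and so did 0 of 22432 genes (0%), the targeted RELA included. At an unadjusted p under 0.05 there were 5 of 10, namely ANKRD1, CCN2, AMOTL2 and LATS2 above and AJUBA below the control, against 6.39% of all genes above and 7.95% below. The 10 genes split evenly, with 5 above and 5 below 0, and a median log2 change of 0.14.

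ANKRD1 stood at 8.05 and 7.86 with p65 shRNA, against 6.83 and 5.82 in control cells. Both p65 arrays were above both control arrays, although the control arrays lay 1.01 apart, the widest gap of the 10 genes by their main probe sets in that table. The log2 change was 1.63 (SE 0.352, limma adjusted p = 0.158), and it was 1.12 without control replicate 2 and 2.13 without control replicate 1. With an intensity trend ANKRD1 passed (SE 0.286, adjusted p = 0.0228), as 1.37% of all genes did in that direction, and it was the 1 gene of the 10 to do so.

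CCN2 gave 6.88 and 7.02 with p65 shRNA, against 6.49 and 6.32 in control cells, a log2 change of 0.55 (SE 0.175, limma adjusted p = 0.27). AMOTL2 gave 6.41 and 6.58 with p65 shRNA, against 6.05 and 5.91, a change of 0.52 (SE 0.176, limma adjusted p = 0.291). LATS2 gave 7.73 and 7.67 with p65 shRNA, against 7.22 and 6.86, a change of 0.66 (SE 0.198, limma adjusted p = 0.246). In each of these 3 genes the p65 arrays lay above both control arrays. CCN1 gave 10.18 and 10.20 with p65 shRNA, against 10.13 and 9.58 in control cells. Its higher control array was close to the p65 arrays, and the change was 0.34 (SE 0.235, limma adjusted p = 0.581), or 0.06 without control replicate 2. The dimmer CCN2 probe set gave 0.94 and 1.00 with p65 shRNA, against 0.86 and 0.52 in control cells.

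AJUBA gave 6.09 and 6.14 with p65 shRNA, against 6.61 and 6.61 in control cells, a change of -0.49 (SE 0.164, limma adjusted p = 0.281). NT5E gave 4.71 and 4.47 with p65 shRNA, against 4.85 and 5.11, a change of -0.39 (SE 0.196, limma adjusted p = 0.444). AXL gave 9.72 and 9.62 with p65 shRNA, against 10.02 and 9.92, a change of -0.30 (SE 0.169, limma adjusted p = 0.492). These 3 genes had both p65 arrays below both control arrays, the opposite side from their ZHX2 arrays. CRIM1 gave 9.13 and 9.21 with p65 shRNA, against 9.53 and 8.97, and TEAD1 gave 7.97 and 8.12, against 8.24 and 7.98. Their groups overlapped, with changes of -0.08 and -0.06. In 8 of the 10 genes control replicate 1 was higher than control replicate 2, though for AJUBA both rounded to 6.61. No such share was computed over all genes. The median gap between replicates over the 10 genes was 0.12 for the p65 arrays and 0.26 for the control arrays. Arrays of p65 shRNA lay above both control arrays in 5 genes and below both in 3, against 23.4% and 22.7% of all genes.

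**Figure D4:**
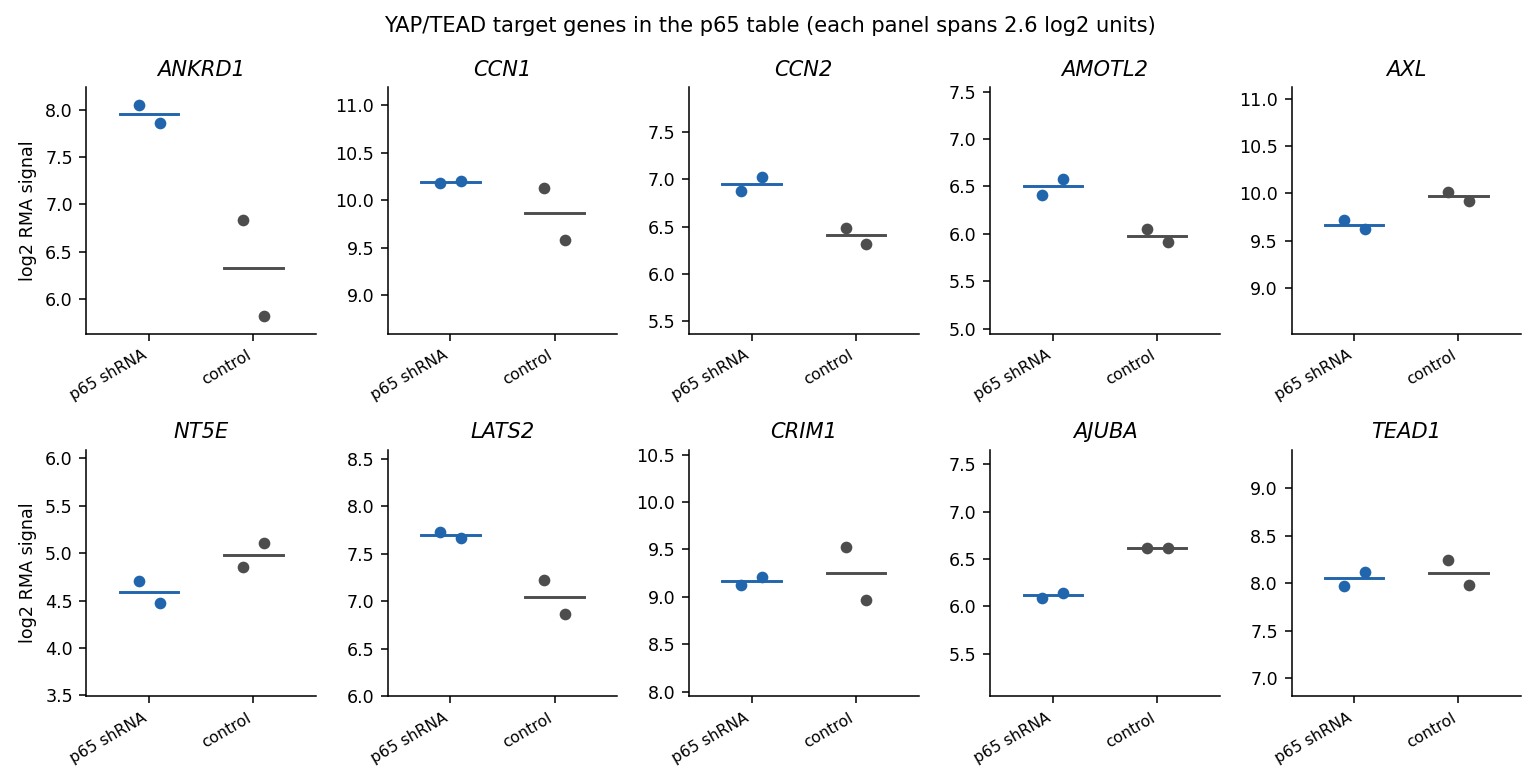
Log2 RMA signal of the 10 YAP/TEAD target genes on each of the 4 arrays of the p65 table, with points for arrays and bars for means of 2 arrays. ANKRD1, CCN1, CCN2, AMOTL2 and LATS2 are higher and AXL, NT5E and AJUBA lower on both p65 arrays, and the control arrays are far apart for ANKRD1, CCN1 and CRIM1.

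A further 21 measured genes often counted as YAP/TEAD targets split in the ZHX2 comparison, with 7 higher, 5 lower and 9 not called, against 11.9% of all genes higher and 6.41% lower. Their median log2 change was 0.03. F3, which encodes tissue factor, rose by 1.15 (SE 0.0907, limma adjusted p = 0.0021), at 9.41 to 10.09 on the knockdown arrays against 8.51 to 8.74 on the scrambled arrays. FJX1, the homologue of fly four-jointed, rose by 0.77 (SE 0.0607, limma adjusted p = 0.00212). IGFBP3, a secreted binding protein of insulin-like growth factors, fell by 0.87 (SE 0.0628, limma adjusted p = 0.00186). The other rises were GADD45A at 0.84, SLC2A3 at 0.77, CCDC80 at 0.73, DOCK5 at 0.48 and TGFB2 at 0.35. The other falls were TNS3 at -0.56, RBMS3 at -0.50, ARHGAP29 at -0.50 and ARHGEF17 at -0.35, and both sets of further names were chosen after their values were seen. The ARHGEF17 call ended with any single array left out (adjusted p from 0.0528 to 0.106) and after median centring (0.0507). In the p65 comparison 0 of the 21 passed limma, 7 passed at an unadjusted p under 0.05 (14.3% of all genes did), and the smallest p-values were those of the CCN family member CCN3, with a change of 1.14 (SE 0.17, limma adjusted p = 0.0984), and of CCDC80, with -1.30 (SE 0.226, limma adjusted p = 0.114). With an intensity trend 4 of the 21 passed, CCN3 (adjusted p = 0.0445) and GADD45A (0.0222) higher and CCDC80 (0.00928) and F3 (0.0191) lower, against 1.37% of all genes higher and 2.49% lower.

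For the complex itself, 9 further genes for YAP, TAZ, TEAD and the VGLL cofactors were read after ZHX2 knockdown. By limma 0 of the 9 passed, against 11.9% of all genes called higher and 6.41% lower. At those shares a list of 9 could hold few calls or 0. At an unadjusted p under 0.05 there were 2, against 32.2% of all genes at that unadjusted level. YAP1 was at -0.12 (SE 0.0793, limma adjusted p = 0.372) and WWTR1, which encodes TAZ, at -0.06 (limma adjusted p = 0.645). TEAD4 was the nearest to the threshold, at 0.28 (SE 0.0745, limma adjusted p = 0.0505), and it passed with an intensity trend (0.00216), after median centring (0.0402) and without dim probe sets (0.0217). VGLL3 was at -0.21 (limma adjusted p = 0.15) and TEAD2 at -0.24 (limma adjusted p = 0.254). In the p65 comparison 0 of the 9 passed limma, 2 passed at an unadjusted p under 0.05 (14.3% of all genes), and the smallest p-values were those of VGLL4, a repressor of TEAD, at 0.90 (SE 0.17, limma adjusted p = 0.123) and TEAD4 at -0.84 (SE 0.164, limma adjusted p = 0.133). TEAD4 alone of the 9 passed there with an intensity trend (adjusted p = 0.0295), against 1.37% of all genes higher and 2.49% lower.

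Among 19 Hippo kinases and adaptors, 5 rose and 1 fell with ZHX2 knockdown, against 11.9% of all genes higher and 6.41% lower, with a median log2 change of 0.08. The kinase MAP4K4 rose by 0.35 (SE 0.0616, limma adjusted p = 0.0149), and NF2, the scaffold merlin, by 0.40 (SE 0.078, limma adjusted p = 0.0202). The other rises were LIMD1 at 0.34, WWC1 at 0.33 and LATS1 at 0.30, named after their values were seen. The protocadherin FAT1 fell by 0.46 (SE 0.067, limma adjusted p = 0.00925). All 5 rises lost their call without scrambled replicate 2 or without any 1 of the 4 knockdown arrays, leaving 0 higher and 1 lower, and MAP4K4, NF2 and LIMD1 kept theirs without scrambled replicate 1. With every probe set tested all 5 rises also lost their call. In the p65 comparison 0 of the 19 passed limma, 6 passed at an unadjusted p under 0.05 (14.3% of all genes), and the smallest p-values were those of the scaffolds SAV1 at -1.06 (SE 0.165, limma adjusted p = 0.1) and AMOT at -1.25 (SE 0.215, limma adjusted p = 0.113). With an intensity trend AMOT (adjusted p = 0.0247) and FAT1 (0.0434) passed, both lower, against 2.49% of all genes.

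SRF with its MRTF cofactors is another actin-linked regulator that shares some targets with YAP. The list read for it holds none of the 10 YAP/TEAD target genes, and it counts SRF, MRTFA and MRTFB themselves as genes. Of 13 measured genes of that list 1 rose, SRF itself by 0.44 (SE 0.0618, limma adjusted p = 0.00816), and 1 fell, FILIP1L by 0.74 (SE 0.178, limma adjusted p = 0.038), against 11.9% of all genes higher and 6.41% lower, with a median log2 change of -0.06. With an intensity trend 2 of the 13 were higher and 4 lower, against 17.3% and 8.89% of all genes. The FILIP1L fall was no longer called after removal of any array other than scrambled replicate 2 (adjusted p from 0.0676 to 0.0963), and was -0.43 without scrambled replicate 1. TPM2, a tropomyosin, was at -0.51 (SE 0.139, limma adjusted p = 0.0547). In the p65 comparison 0 of the 13 passed limma, with an intensity trend too, 2 passed at an unadjusted p under 0.05 (14.3% of all genes), and FILIP1L and TPM1 had the smallest p-values, at changes of 0.70 and 0.65 (limma adjusted p = 0.247 and 0.31).

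**Figure D5:**
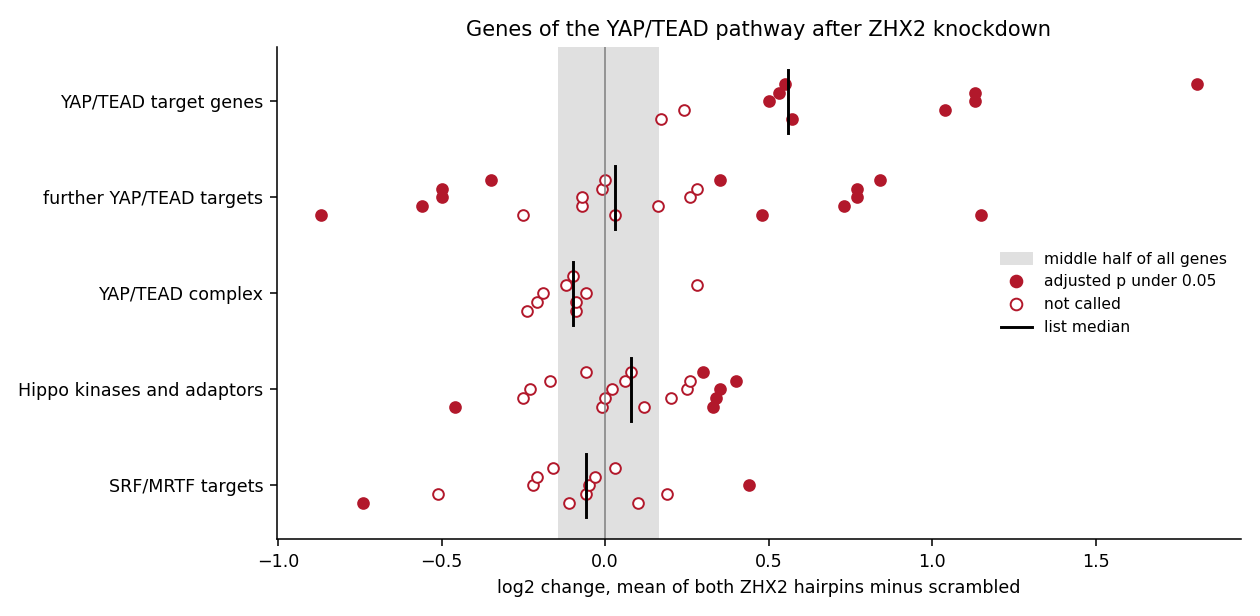
Log2 change over both ZHX2 hairpins for each measured gene of 5 lists, filled where the limma adjusted p was under 0.05, with list medians as black lines and the quartile range of all genes in grey. The 10 YAP/TEAD target genes lie above 0 at a median of 0.56, and the other 4 lists have medians from -0.10 to 0.08.

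The genes nearest to 3 members in pattern were found by the root mean square difference over the 6 ZHX2 arrays, each signal taken relative to the scrambled mean of its gene. Nearest to ANKRD1 were FLG, STC2 and SLCO4A1, at 0.142, 0.148 and 0.192 log2 units. Nearest to CCN1 were NIP7, RRS1 and CHAC1, at 0.0503, 0.0567 and 0.0602, and nearest to CCN2 were SEMA7A, MFSD2A and SNORD12C, at 0.0486, 0.0665 and 0.0668. In the p65 table, which did not enter this measure, the changes of these neighbours went both ways. STC2 was at 1.45 (limma adjusted p = 0.1) and FLG at -1.08 (limma adjusted p = 0.387), beside 1.63 for ANKRD1.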

How the data were processed

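Per the submitters' processing notes, the deposited log2 values come from RMA, which corrects background, normalizes arrays and reduces probes to a signal for each probe set. For its software, annotation and build, nothing is given in the sources used here. Each table holds 53617 probe sets and was taken as normalized separately. Probe sets were named from the annotation of either platform, with symbols updated through the RefSeq table of GRCh38.p14, which gave 1 gene to 24480 probe sets and left 27196 without a gene. CCN1, NT5E and LATS2 are named only by the annotation of the p65 platform. For each of 22432 genes the probe set with the highest mean signal in the table was used.

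Group means were compared with limma 3.58.1 in R 4.3.3 (lmFit, then eBayes without a trend). All 6 ZHX2 arrays shared a fit with 3 residual degrees of freedom, and the p65 arrays had 2. P-values were adjusted by Benjamini-Hochberg over all genes, standard errors are limma's moderated ones, and the fit was tested on simulated data. Alternatives were an intensity trend, quantile normalization, median centring, a filter at the 40th percentile of mean signal (all 10 genes passed it in both tables), averaged probe sets per gene, all probe sets tested singly, a block for replicate number, a fit restricted to the 2 groups in question, and leaving out each array. Besides the 10 genes, ZHX2 and RELA, the text names the 3 genes of each further list with the smallest p (2 for p65). It also names the 3 nearest in pattern to ANKRD1, CCN1 and CCN2, and cell type markers. Further genes of these lists are named too, some of them after their values were seen. The members and lists were chosen with earlier results of these data known.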

Additional observations from a re-analysis of the deposited data

How the results depend on the processing

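Over both ZHX2 hairpins the count of called genes stayed at 8 under each alternative, and with each array left out (range 8 to 8), except with an intensity trend, where it was 10. For hairpin 44, against 8, it was 4 with every probe set tested, 5 with only the 2 groups compared, 7 after quantile normalization, 6 with the replicate block and 0 to 5 with 1 array left out. For hairpin 45 it ran from 5 to 8 with 1 array left out. The replicate block gave 8 for both hairpins averaged and for hairpin 45, and 0 for hairpin 45 against hairpin 44 and for p65. Same-numbered arrays did not deviate together (correlations from -0.0263 to 0.0542), so the numbers were not taken as pairs. For hairpin 45 against hairpin 44 the count was 2 with an intensity trend, 1 without dim probe sets and 0 to 0 with 1 array left out. For p65 it was 1 with an intensity trend and 0 to 0 with 1 array left out. Several differences near 0 changed sign. In hairpin 45 against hairpin 44 TEAD1 was -0.01 after quantile normalization and LATS2 ran from -0.10 to 0.01, AMOTL2 from -0.05 to 0.06 and AJUBA from -0.06 to 0.06 with 1 array left out. In the p65 comparison CRIM1 ran from -0.36 to 0.20, TEAD1 from -0.20 to 0.07, YAP1 from -0.17 to 0.05 and WWTR1 from -0.19 to 0.13 with 1 array left out, and YAP1 was 0.23 with the mean of its probe sets. The causes were not tested. Over all genes, the calls for hairpin 44 numbered 1716, against 3940 with an intensity trend, 3062 without dim probe sets, 820 with the replicate block, 575 with only the 2 groups compared, 521 with every probe set tested and 3 to 595 with 1 array left out. For hairpin 45 against hairpin 44 they numbered 89, against 1466 with an intensity trend, 403 without dim probe sets, 11 with the replicate block, 8 with every probe set tested, 3 with only the 2 groups compared and 0 to 4 with 1 array left out. For p65 they were 0, against 866 with an intensity trend. With 1 array left out they fell as low as 1788 for both hairpins averaged, against 4102, and 1134 for hairpin 45, against 4513. After quantile normalization they split 949 higher and 906 lower for hairpin 44, against 1078 and 638, and 2209 and 1957 for hairpin 45, against 2918 and 1595. The alternatives for genes outside the 10 were added after seeing the data. With 2 arrays a group, precision is limited. Over the 10 genes the median gap between replicates was 0.12 for p65 and 0.26 for control arrays. It was 0.09 for scrambled, 0.03 for hairpin 44 and 0.07 for hairpin 45. The largest gap was 0.24 on p65 and 1.01 on control arrays, against 0.26 on scrambled, 0.12 on hairpin 44 and 0.14 on hairpin 45 arrays.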
